A study of Mus musculus with 2 samples.

Results

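The genes described here encode the proteins of the mitochondrial ribosome. They were taken from the deposited table by name, as every symbol made of Mrpl or Mrps, a number and at most 1 closing letter, and 75 of the 24229 listed genes fitted. Of these, 46 were named Mrpl and 29 Mrps. The tissue was the suprachiasmatic nucleus (SCN), the circadian pacemaker of the hypothalamus, dissected from wild-type C57BL/6 animals aged 68 days after birth. One group of 8 mice had been entrained for 4 weeks to a short (ST) and the other group of 8 to a normal (NT) T-cycle, a light-dark schedule of fixed period whose length is not given in the sources used here. Before that, all 16 mice had spent 7 days in constant darkness, and all were sampled at circadian time 4 h, on return to darkness for 5 days. Polyadenylated RNA gave 1 library per group, and how many mice went into each library is not stated. With 1 library per group no spread between animals can be estimated. Every difference below is therefore between 2 libraries, and its 95% interval covers counting error only.

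Mitochondrial ribosomes translate the few messages of the mitochondrial genome, all of which encode subunits of the respiratory chain and ATP synthase. Their RNA comes from mitochondrial DNA, but each of their proteins is encoded in the nucleus, made in the cytosol and imported. Some of these proteins have counterparts in bacterial ribosomes, and others were added during the evolution of mitochondria. The large subunit (Mrpl genes) holds the peptidyl transferase centre and the small subunit (Mrps genes) decodes the message. By structure, Mrps18a and Mrps30 also belong to the large subunit, which made 48 large and 27 small subunit genes here. Mrps36, kept by the naming rule, encodes a protein that is now assigned to the 2-oxoglutarate dehydrogenase complex.

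Promoters of these genes are shown first, because they carry what many members share outside the measured values. RefSeq sequences (build GRCm38.p6) from 250 bases before to 50 after the start were found for 66 of the 75 members. Below are Mrpl34, the member with the highest ST to NT ratio, Mrps18b, the 1 member with an interval wholly below 1, Mrps11, whose start lies head to head with that of Mrpl46, and Mrpl32, which holds an NRF1 motif. They lie at chr8:71464676-71464975 on the plus strand, chr17:35916391-35916690 on the minus strand, chr7:78782881-78783180 on the plus strand and chr13:14612988-14613287 on the minus strand. Capitals mark a motif match: the ETS core CCGGAAG in Mrpl34, its reverse complement CTTCCGG at the end of Mrps18b, the reverse of the YY1 motif in Mrps11, and the palindromic NRF1 motif in Mrpl32. No matches overlap in these 4 sequences.
Mrpl34: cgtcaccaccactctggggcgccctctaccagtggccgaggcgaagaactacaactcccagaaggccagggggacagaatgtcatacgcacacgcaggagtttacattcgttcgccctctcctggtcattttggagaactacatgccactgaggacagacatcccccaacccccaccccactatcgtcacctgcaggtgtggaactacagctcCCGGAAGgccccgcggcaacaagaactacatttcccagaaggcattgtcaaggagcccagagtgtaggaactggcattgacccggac
Mrps18b: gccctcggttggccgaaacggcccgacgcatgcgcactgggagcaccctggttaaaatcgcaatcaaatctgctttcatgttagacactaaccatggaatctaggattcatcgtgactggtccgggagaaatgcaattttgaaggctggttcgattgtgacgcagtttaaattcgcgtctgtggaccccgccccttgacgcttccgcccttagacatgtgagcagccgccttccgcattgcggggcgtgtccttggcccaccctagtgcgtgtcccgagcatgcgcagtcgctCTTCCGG
Mrps11: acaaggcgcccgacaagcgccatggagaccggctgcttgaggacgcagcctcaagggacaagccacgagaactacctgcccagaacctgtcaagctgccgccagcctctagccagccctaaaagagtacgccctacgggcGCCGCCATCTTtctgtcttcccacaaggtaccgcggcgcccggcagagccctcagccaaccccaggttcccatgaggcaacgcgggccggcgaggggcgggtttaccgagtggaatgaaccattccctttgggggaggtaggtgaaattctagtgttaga
Mrpl32: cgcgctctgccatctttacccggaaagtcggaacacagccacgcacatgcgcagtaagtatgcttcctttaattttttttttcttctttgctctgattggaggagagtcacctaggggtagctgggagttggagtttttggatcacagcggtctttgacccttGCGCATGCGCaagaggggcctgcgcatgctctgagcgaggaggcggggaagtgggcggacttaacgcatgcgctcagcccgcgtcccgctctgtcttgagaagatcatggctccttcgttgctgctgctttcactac

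The ETS core, which is bound by GABP (also called NRF-2) among other ETS factors, was the most frequent of the 4 motifs searched on both strands. It was found in 24 of 66 member promoters (36.4%) and in 12.9% of the promoters of 17426 other protein-coding genes. The full YY1 motif was found in 5 member promoters (7.58%), against 1.03% of the others: Mrpl35, Mrpl37, Mrps11, Mrps18a and Mrps27. The NRF1 motif was present in 3 (4.55%), Mrpl9, Mrpl32 and Mrpl39, against 1.46%. The ERR motif TCAAGGTCA was in 0 of 66 and in 0.379% of the others. In all, 30 of the 66 promoters held at least 1 of these exact sequences. A match describes letters in a window and does not show binding. Members with the ETS core had a median log2 ratio of ST to NT of 0.03 (n = 24), and those without it 0.05 (n = 42).

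Many members start close to another gene. In the GENCODE vM1 annotation of NCBIM37 (mm9, the build of the deposited table), 28 of 75 members (37.3%) had the start of a protein-coding gene on the other strand within 1000 bases, against 13.3% of 17442 other protein-coding genes in the table. The partner's start lay upstream for 16 members, and for 12 the first parts of both genes overlapped. Mrps11 and Mrpl46 form such an overlapping pair with each other, with starts 412 bases apart. Other partners included Psma2, a proteasome subunit, beside Mrpl32, the seryl-tRNA synthetase gene Sars2 beside Mrps12, the respiratory chain subunit gene Ndufb5 beside Mrpl47, and Peo1, the mitochondrial DNA helicase, beside Mrpl43. The members lie on 17 chromosomes, with 10 on chromosome 11 and 8 on chromosome 17.

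All 75 genes were detected in both libraries. Levels were compared between genes by the authors' RPKM, which divides counts by gene length and library total. The median was 14.6 RPKM in the ST library and 15.2 in NT, against 9.26 and 9.16 over 14343 measured genes, those whose normalised count averaged 50 or more. Most members, 59 of 75, lay between 5 and 30 RPKM as a mean of both libraries, with quartiles of 8.57 and 21.2. Together they took 0.199% of counts in the ST library and 0.192% in NT.

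Mrpl41, a large subunit protein with no bacterial counterpart, had the highest level, 74.6 RPKM in the ST library and 66.0 in NT. Mrpl52, also mitochondria-specific, followed with 45.9 and 43.7 RPKM. Mrpl11, which sits at the base of the stalk where translation factors bind, had 43.1 and 38.5 RPKM. Both libraries kept these 3 genes on top in the same order. Mrps12, the decoding-centre protein of the small subunit, had 35.8 and 35.4 RPKM, Mrpl13 34.1 and 31.3, and Mrpl43 31.0 and 31.5. These 3 genes lay close together, and no replicate spread exists to rank them. At the low end stood Mrpl23, an exit-tunnel protein, with 1.51 RPKM in the ST and 1.93 in NT, Mrps10 with 2.61 and 2.38, Mrps35 with 2.53 and 2.84, and Mrpl33 with 3.25 and 3.06. From Mrpl23 to Mrpl41 the mean RPKM spanned 40.9-fold.

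**Figure D1:**
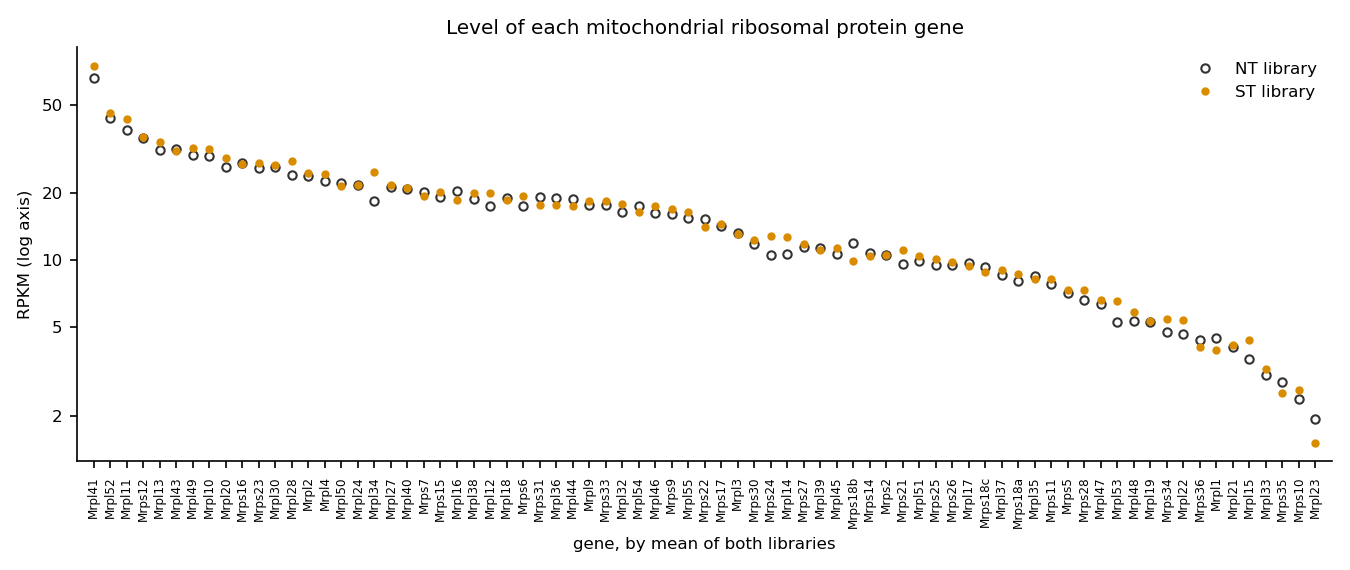
RPKM of each of the 75 genes (log axis) in the ST library (filled) and the NT library (open), ordered by the mean of both. Levels run from 1.51 to 74.6 RPKM, and the 2 libraries follow each other closely along the order.

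Part of this range came with the length used by the authors. The gene length implied by the deposited values was within 2% of the union of all annotated GENCODE exons for 62 of 75 members, and for 9 members it was at least 2 times the longest coding transcript. Mrpl33 is the clearest case: its row spans 31899308 to 32004345 on chromosome 5, its model of 7459 bases shares exons with the neighbouring gene Bre, and its longest coding transcript has 478 bases. Per kilobase of that transcript, an alternative added after the data had been seen, its level was 50.7 RPM in the ST library and 47.7 in NT. That placed Mrpl33 second to Mrpl41, which stayed at 74.4 and 65.9. Reads over the whole gene model still entered these levels, so they can be too high where that model exceeds the transcript, as for Mrpl33. Mrps10 moved from 2.61 to 18.9 in the ST library, and Mrps35 from 2.53 to 13.1. For some genes near the top the implied length was instead shorter than the transcript, and their levels fell. In the ST library Mrpl13 (779 against 1223 bases) moved from 34.1 to 21.7. Mrpl49 (673 against 1722) moved from 31.9 to 12.5, and Mrps12 (689 against 883) from 35.8 to 28.0. Mrpl23 remained the lowest by the mean of both libraries, with 3.87 in ST and 4.93 in NT, although Mrpl15 was lower in NT, at 4.86. On this scale the median of the mean levels was 17.2, and the quartiles were 11.6 and 27.1. Ratios between libraries do not depend on the length chosen.

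**Figure D2:**
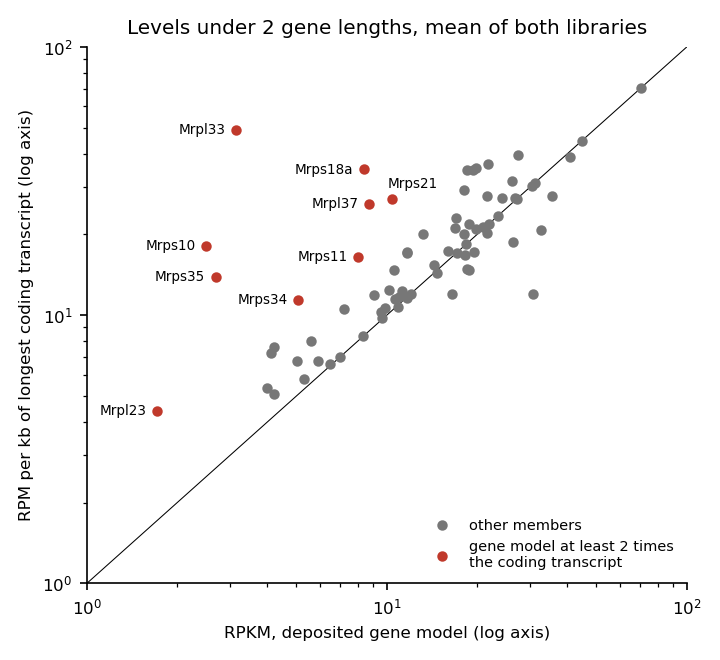
Mean level of each member over both libraries by the deposited RPKM (x, log axis) and per kilobase of the longest coding transcript (y, log axis), with the line of equality. The 9 named genes in red, Mrpl33 farthest from the line, have a gene model at least 2 times as long as that transcript.

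The ST and NT libraries differed little in these genes. Of 75 members, 49 had a log2 ratio of ST to NT above 0, where 49.1% of all measured genes did. Their median log2 ratio was 0.05 (quartiles -0.04 and 0.10), and that of all measured genes was -0.0024 (quartiles -0.08 and 0.07). Summed over all members, there were 38732 ST counts and 47531 NT counts, which after scaling for depth is 1.03-fold higher in ST (1.01 to 1.04). The same sum over the 42 members with whole counts gave 1.019 (1.002 to 1.037), and over all measured genes 0.992 (0.991 to 0.992). Pooled counts are large, so such intervals leave out 1 for very small differences. The log2 ratio was taken on counts scaled by median-of-ratios size factors, with a pseudocount of 0.5.

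For 68 members the interval of the fold held 1. It lay above 1 for 6 members (8.00%), where 7.79% of all measured genes had such an interval, and below 1 for 1 member, where 10.2% did. At least 1.2-fold higher in ST were 3 members (Mrpl34, Mrpl53 and Mrpl15) against a background of 3.35%, and at least 1.2-fold lower were 2 (Mrpl23 and Mrps18b) against 6.11%. Past 2-fold there were 0 members in either direction, as for nearly all genes (0.0209% higher and 0.23% lower). The share of members with an interval above 1 was thus near that of all genes.

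**Figure D3:**
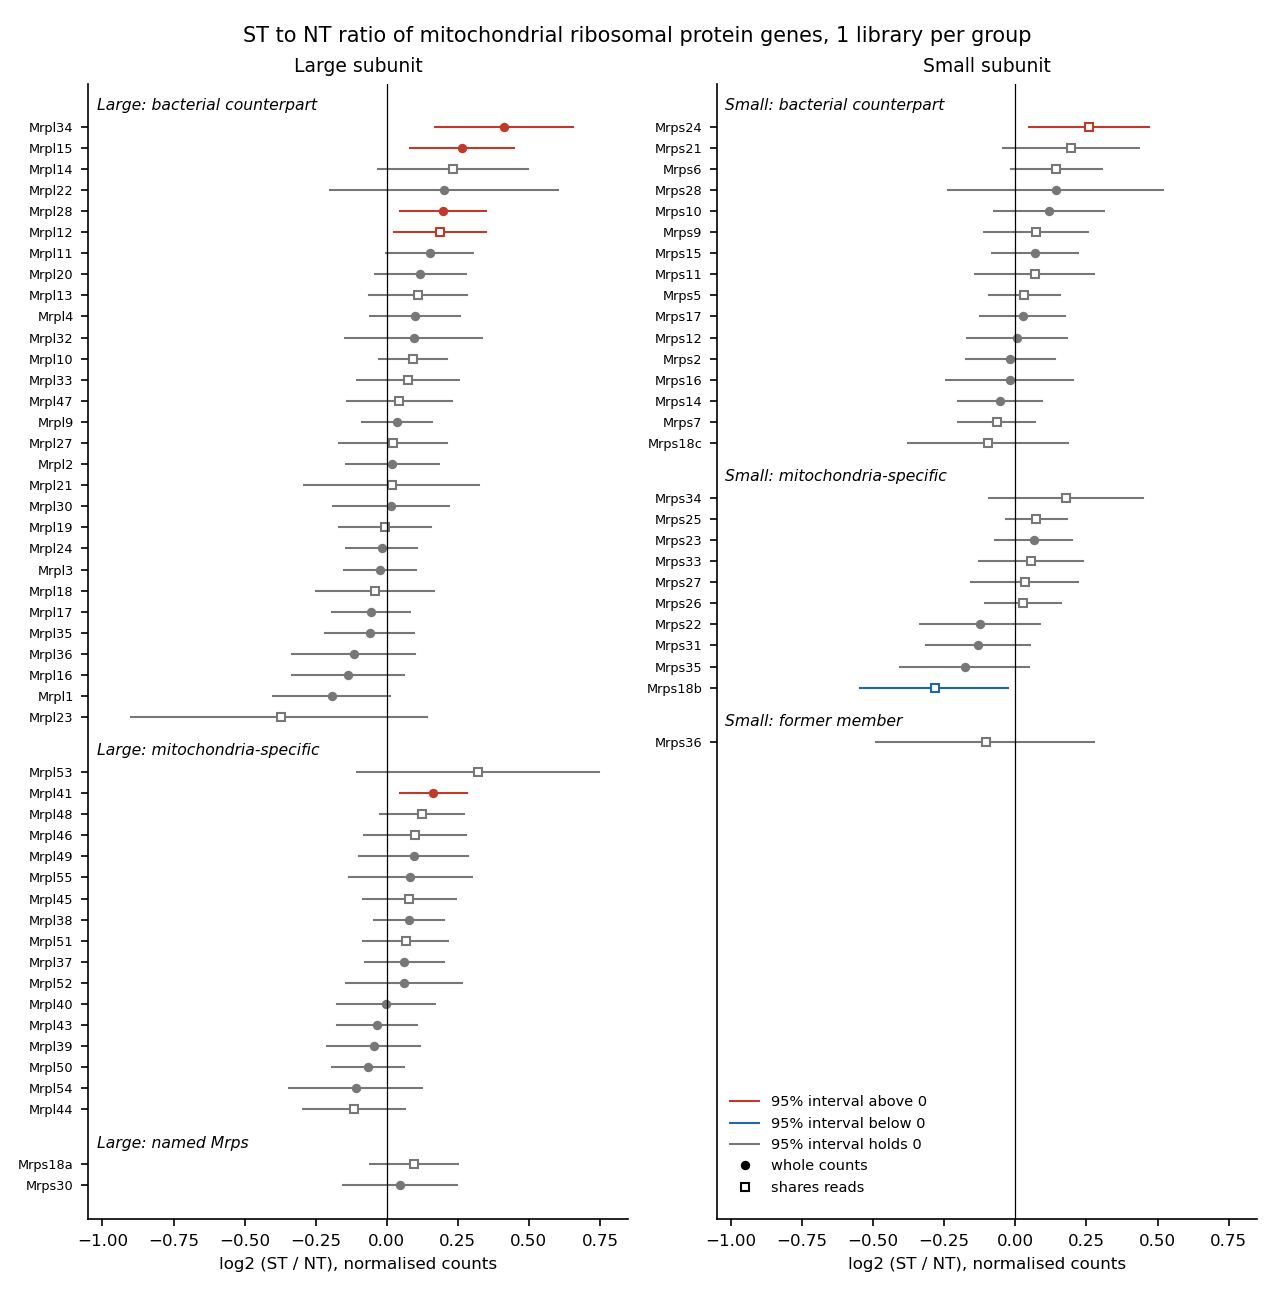
Log2 ratio of ST to NT for each gene (points) with its 95% counting interval (lines), by subunit and by whether the protein has a bacterial counterpart. Red intervals lie above 0 (6 genes, led by Mrpl34), blue below 0 (Mrps18b), and open squares mark genes with fractional counts, read here as shared reads.

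Among large subunit genes, 32 of 48 (66.7%) were higher in the ST library, against 49.1% of all measured genes. Their median log2 ratio was 0.06. Mrpl34, a small protein of the large subunit core (ENSMUSG00000034880, chromosome 8, 73988858 to 73989644 in mm9), had 291 ST counts although that library was the shallower one, and 276 NT counts. Its level was 24.8 RPKM in ST and 18.5 in NT. The normalised count was 1.33-fold higher in ST (1.12 to 1.57), the highest ratio of all members. Its promoter is the first of those printed above. Mrpl15 (ENSMUSG00000033845, chromosome 1, 4763287 to 4775820), another core protein with a bacterial counterpart, had 482 ST counts and 506 NT counts, 1.202-fold higher (1.06 to 1.36). Mrpl28, which also has a bacterial counterpart, had 692 ST counts and 761 NT counts, 1.15-fold higher (1.03 to 1.27). Mrpl41, the most abundant member, had 1125 and 1267 counts, 1.12-fold higher (1.03 to 1.22). The counts of these 4 genes were whole numbers, with no trace of reads divided with another feature. Below, sharing reads stands for fractional counts, and where else such reads were assigned is not given.

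Of the 5 genes of the stalk and its base, 4 were higher in ST, as were 49.1% of all measured genes. The median log2 ratio of these 5 was 0.15. Mrpl12, the flexible stalk protein that recruits translation factors, had 598 ST counts and 663 NT counts, 1.14-fold higher (1.02 to 1.27). Its counts are fractional, and its exons overlap those of the antisense gene Gm16755. Mrpl11 had 656 and 746 counts, a ratio of 1.11 whose interval (0.998 to 1.23) just held 1. The interval also held 1 for Mrpl10, the stalk's anchor, at 1.07 (0.981 to 1.16), and for Mrpl53 at 1.25 (0.929 to 1.68, on 94 and 95 counts). Mrpl54 lay on the other side, with 263 and 358 counts and a ratio of 0.927 (0.788 to 1.09). Of these 5 genes, 3 share reads. Only Mrpl12 of the 5 had an interval clear of 1. Over all measured genes 7.79% of intervals lay above 1 and 10.2% below, and 5 genes are too few to compare with these shares.

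Genes of the polypeptide exit tunnel, through which the new chain reaches the inner membrane, lay around equality, with 3 of 7 higher in ST and a median of -0.02. Mrpl45, which ties the ribosome to that membrane, had 571 and 682 counts, a ratio of 1.06 (0.944 to 1.18). Mrpl44, with 446 and 610 counts, was at 0.923 (0.815 to 1.04). Mrpl23 had the lowest ratio of all members, 0.772, but rests on 52 counts in ST and 85 in NT, and its interval ran from 0.536 to 1.103. No gene of this group had an interval clear of 1, where 7.79% of all measured genes lay above and 10.2% below. Of the 7 genes, 4 share reads, Mrpl23 and Mrpl44 among them.

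Among small subunit genes, 17 of 27 (63%) were higher in ST, against 49.1% of all measured genes, and the median log2 ratio was 0.03. Mrps24, the counterpart of a bacterial protein at the entry of the message channel, had 364 ST counts and 384 NT counts, 1.196-fold higher (1.03 to 1.38), the member just short of 1.2-fold. Its counts are fractional, and its exons overlap those of Urgcp on the same strand. Mrps34 was highest among the small subunit proteins without a bacterial counterpart, with 217 and 242 counts and a ratio of 1.13 (0.938 to 1.36), and Mrps35 was at 0.883 (0.754 to 1.03, 273 and 390 counts). Mrps36 had 101 and 137 counts, a ratio of 0.930 (0.712 to 1.21). Genes with and without a bacterial counterpart were higher in ST in similar shares: 30 of 45 genes with one and 17 of 27 without one, with median log2 ratios of 0.04 and 0.06.

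The 3 paralogues that descend from 1 bacterial protein, S18, occupy different places in the ribosome. Mrps18b, on the small subunit and grouped here with the mitochondria-specific proteins for its position (ENSMUSG00000024436, chromosome 17, 36047331 to 36053334), had 205 ST counts and 315 NT counts. Its level was 9.90 RPKM in ST and 11.9 in NT. The ratio of normalised counts was 0.821 (0.686 to 0.982), the 1 interval below 1 among members. Mrps18c, which holds the bacterial position, had 184 and 248 counts and a ratio of 0.936 (0.770 to 1.14). Mrps18a, on the large subunit, had 624 and 737 counts and a ratio of 1.07 (0.959 to 1.19). The interval of Mrps18b overlapped those of both paralogues. All 3 genes have fractional counts. Mrps18b overlaps the antisense gene Gm16279, and as the strand setting of the counting is not given, reads of both genes cannot be told apart.

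Human counterparts of some members are known disease genes, in which mutations impair oxidative phosphorylation. Mrps16, Mrps22 and Mrpl3 are examples, chosen here after their values had been seen. They do not stand for all disease genes among the members. Mrps16 had 297 and 380 counts in ST and NT, a ratio of 0.986 (0.845 to 1.15). Mrps22 had 325 and 447, a ratio of 0.918 (0.793 to 1.06), and Mrpl3 911 and 1169, a ratio of 0.984 (0.901 to 1.07). All 3 intervals held 1. The authors' deposited table gives each member an adjusted p of 1, while 0.293% of measured genes had an adjusted p of 0.05 or less there. The lowest unadjusted p of a member in the authors' deposited table was 0.0322, for Mrpl34.

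The ratios are set here beside read sharing and transcript length. Counts were fractional in at least 1 library for 33 of 75 members (44.0%; 42.5% of measured genes). Of the 26 members whose exons overlap those of another annotated gene, 23 had fractional counts, and of the other 49 members 10 did. The median log2 ratio was 0.07 for the 33 that share reads, with 25 higher in ST, and 0.02 for the 42 with whole counts, with 24 higher. Members are short, with a median longest coding transcript of 1185 bases against 3100 over measured genes, and 57 of 75 fall in the shortest quartile, up to 2002 bases. All measured genes of that quartile had a median log2 ratio of 0.02, with 9.45% of intervals above 1 and 6.18% below, and the 57 members had 0.06, with 5 intervals above and 1 below. In the next 3 quartiles the 8, 8 and 2 members had medians of -0.02, 0.03 and 0.03, and all measured genes -0.01, -0.02 and -0.01. The part of length and of read sharing in the members' ratios was not tested.

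Markers of cell types other than neurons were mostly lower in ST. Of 11 oligodendrocyte markers, 11 were lower in ST (summed level 4948 RPM in ST and 6108 in NT), as were 9 of 9 endothelial and mural markers (239.9 and 301 RPM), 10 of 10 microglial markers (279 and 323 RPM), 7 of 7 measured markers of meninges and matrix (68.4 and 129.7 RPM over 8 listed) and 7 of 8 astrocyte markers (3353 and 3557 RPM). Neuron markers were nearly level in sum (5014 and 5082 RPM over the 9 of 11 listed that the deposited table holds). Of these 9, 6 were lower in ST, with 3 intervals below 1 (33.3%) and 1 above (11.1%). SCN markers were present in both libraries (1235 and 1227 RPM over 8 genes). Of these 8, 6 were lower in ST, with 3 intervals below 1 (37.5%), 2 above (25%) and a median log2 ratio of -0.12. Over all measured genes 10.2% of intervals lay below 1 and 7.79% above. Vip was at 0.849 (0.818 to 0.880) and Avp, the most abundant, at 1.16 (1.12 to 1.19). No marker that the deposited table holds was at 0 in either library. In bulk tissue fewer cells of a type and less RNA per cell cannot be told apart, and the part of these differences in the ratios of mitochondrial ribosomal genes was not tested.

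Set beside the genes of other protein machines, the members had a median nearest to that of the respiratory chain. Nuclear genes of oxidative phosphorylation, taken here by name and with assembly factors such as Sdhaf1 among them, had a median log2 ratio of 0.04. Most of the complexes concerned, though not succinate dehydrogenase, are completed by the products of mitochondrial ribosomes. Of 85 such genes, 61 were higher in ST, and 13 intervals lay above 1 (15.3%) and 0 below. Over all measured genes 7.79% of intervals lay above 1 and 10.2% below, and over the members 8.00% and 1.33%. The cytosolic ribosomal protein genes, taken here by name with a wider rule, had a median of 0.10, with 68 of 80 higher. Of their intervals, 29 lay above 1 (36.2%) and 0 below, and 73 of the 80 genes share reads. The members' median of 0.05 lay between those of all measured genes and of the cytosolic ribosomal genes. The spread within each set was larger than the distance between their medians, as the plot of cumulative shares shows.

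**Figure D4:**
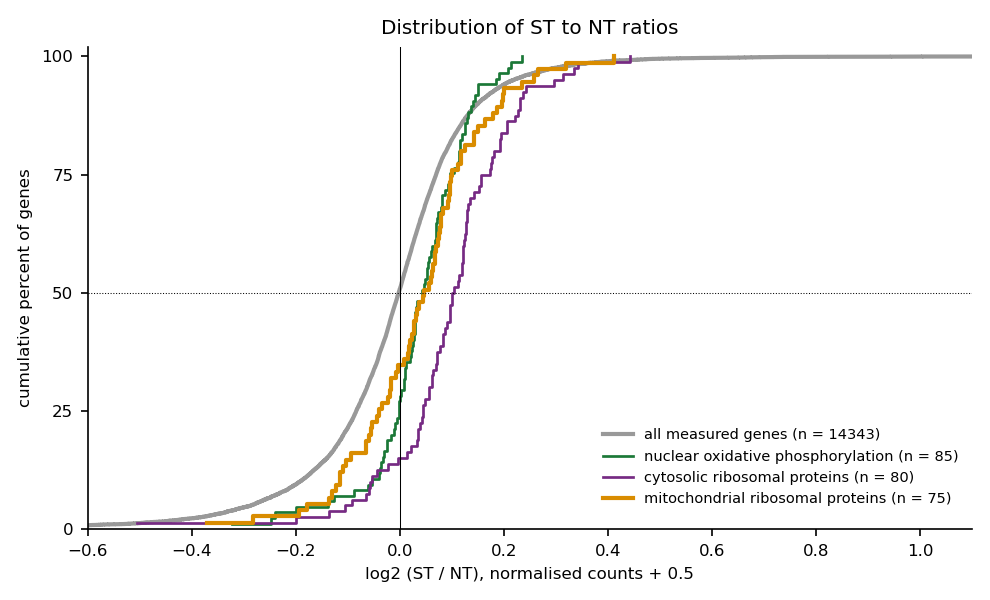
Cumulative percent of genes (y) by log2 ratio of ST to NT (x) for all measured genes, nuclear oxidative phosphorylation genes, cytosolic ribosomal protein genes and mitochondrial ribosomal protein genes. The curve of the 75 members runs close to that of the 85 oxidative phosphorylation genes, and the 80 cytosolic ribosomal genes lie farther to the right.

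The median log2 ratios of the members' partners in mitochondrial gene expression lay on both sides of 0. Proteins of the mitochondrial ribosome with other names (Dap3, Chchd1, Aurkaip1, Ptcd3, Ict1, Gadd45gip1 and Mrp63) had a median log2 ratio of 0.01, with 4 of 7 higher and 0 intervals clear of 1. Within them, Gadd45gip1 and Mrp63 were both at 0.13 (log2), and Chchd1, the most abundant, had 43.7 RPKM in ST and 43.2 in NT. Genes listed here under ribosome assembly and rRNA modification had a median of 0.04. Of their intervals, 5 of 17 lay above 1 (29.4%, against 7.79% of all measured genes) and 0 below. These 5 included Pus1 (215 and 219 counts, 1.24-fold, 1.02 to 1.502), a pseudouridine synthase known mainly for tRNA rather than for the ribosome. Also among them were Mtg1, a GTPase of large subunit assembly (364 and 374 counts, 1.23-fold, 1.06 to 1.42), and Gtpbp5, another such GTPase (346 and 360 counts, 1.21-fold, 1.04 to 1.41). Pus1 and Mtg1 share reads.

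Translation factors had a median of -0.04, with 10 of 13 lower in ST, against 7295 of 14343 measured genes. Of their intervals, 0 lay above 1 and 1 below (7.69%, against 10.2% of all measured genes). Gfm2, which splits the ribosome after termination, had 420 and 608 counts and a ratio of 0.872 (0.768 to 0.989), and shares reads. The release factor gene Mtrf1 was at 0.847 (0.690 to 1.04), and the elongation factor gene Tufm, which also shares reads, at 0.887 (0.745 to 1.06). The 11 measured genes of mitochondrial DNA expression had a median of 0.03 and 0 intervals clear of 1, with Tfam, the packaging and transcription factor of mitochondrial DNA, at 0.979 (0.899 to 1.07). The messages that mitochondrial ribosomes translate were slightly lower in ST, with all 13 protein-coding genes of the mitochondrial genome below 1, 13 intervals below 1 (10.2% of all measured genes) and a median of -0.12. Counts of these genes are fractional in all 13 cases.

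**Figure D5:**
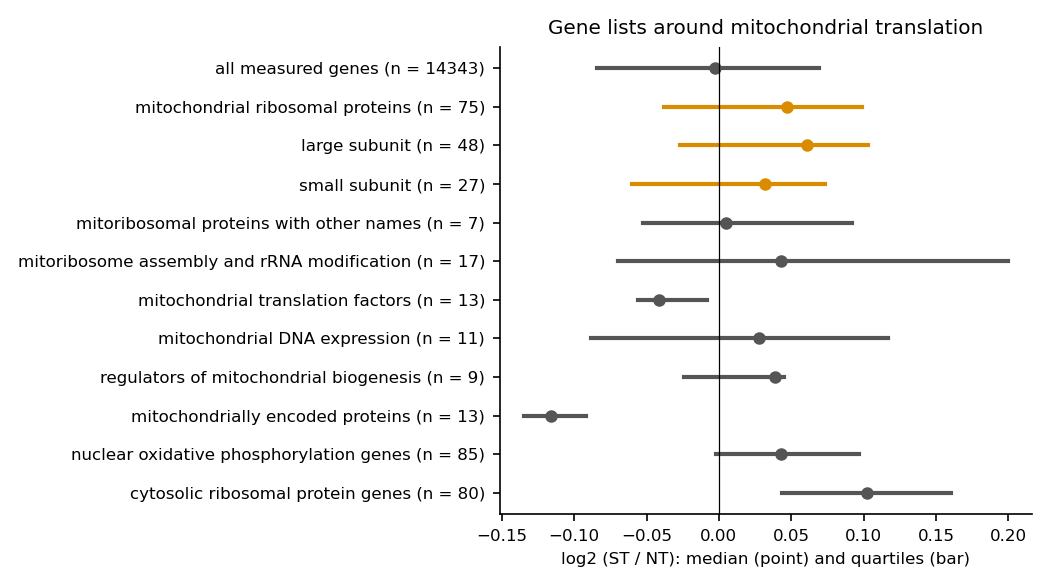
Median (points) and quartiles (bars) of the log2 ratio of ST to NT for the members and for gene lists of mitochondrial translation, with all measured genes on top. Mitochondrially encoded genes lie at -0.12, translation factors at -0.04 and the 75 members at 0.05.

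Regulators of mitochondrial biogenesis that are known to act on nuclear promoters were measured in 9 of 9 cases, with a median of 0.04. Pprc1, a coactivator of NRF1, had 701 and 771 counts and a ratio of 1.15 (1.03 to 1.27), and shares reads. Yy1 had 847 and 1194 counts and a ratio of 0.895 (0.819 to 0.979). Nrf1 itself was at 1.03 (0.904 to 1.17), and Gabpa, the DNA-binding subunit of GABP, at 1.03 (0.931 to 1.14). The 5 members with a YY1 motif had a median log2 ratio of 0.06.

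Depth set what could be seen. Members had from 52 to 1556 counts per library, with medians of 474 in ST and 589 in NT. The counting interval reached a median factor of 1.13 to either side of the ratio, from 1.08 for Mrps25 to 1.43 for Mrpl23. A difference of the size of the members' median was therefore not detectable for single genes at this depth.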

How the data were processed

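Estimated counts per gene, labelled RC in the file headers, were deposited by the authors for 1 ST and 1 NT library. They are fractional for 42.4% and 43.1% of genes (tolerance 1e-06) and sum to 19476800 and 24790727. The authors also deposited RPKM and RPM values and a comparison with a fold ratio, its log2 and p-values, per the file headers. Per the submitters' processing notes, CASAVA 1.8.2, TopHat 1.2, DESeq and mm9 were used, with no role given. Of the counter, its annotation and its strand setting, nothing was given in the sources used here. A further 3 columns of means were not used, since their names fit no single sample.

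Counts were rounded, then scaled with size factors from median ratios (0.89 and 1.12 for ST and NT). Genes entered when their normalised count averaged 50 or more. The 95% interval of a fold comes from an exact Clopper-Pearson interval for the share of a gene's counts that fell in ST, converted with these factors. This covers only counting error, and PCR copies cannot be told from separate molecules here. No test and no p-value was computed, with 1 library per group. The calculation was run on simulated Poisson counts, where 95.3% of intervals held the true ratio. Such counts carry counting error only, as the interval assumes, so this checks the arithmetic and not the calls in these libraries. Gene starts and exons came from GENCODE vM1 (NCBIM37), where all 75 members were found by Ensembl identifier, and promoters from RefSeq (GRCm38.p6). Coordinates of genes are those of the deposited table, in mm9, and those of promoters are in GRCm38. Python 3.11.15, scipy 1.17.1, R 4.3.3 and edgeR 4.0.16 (TMM factors only) were used.

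Members and lists were chosen with earlier results of these data known. Named members are the 6 highest and 4 lowest by RPKM, up to 8 per direction with an interval clear of 1, those past 1.2-fold, the stalk genes, the Mrps18 paralogues, and the highest and lowest ratio of each structural group. Of other lists up to 3 genes by size of ratio and the most abundant one were eligible. Further genes are named for their place or role. Alternatives were other scalings, filters, pseudocounts, interval levels, fold rules and whole counts.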

Additional observations from a re-analysis of the deposited data

How the results depend on the processing

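No paired analysis was possible because ST and NT have 1 library each, and no replicate could be left out. The direction of the members' median held under every alternative run, from 0.023 over the 42 members with whole counts to 0.059 with scaling by total counts or with the authors' RPKM. With whole counts only, 24 of 42 members were higher in ST, 0 had an interval below 1 and 0 were at least 1.2-fold lower, since Mrps18b and Mrpl23 share reads. A 99% interval left 4 members above 1 (Mrpl15, Mrpl28, Mrpl34 and Mrpl41) and 0 below. A filter of 200 kept 69 members, of which 1 was at least 1.2-fold lower, and a 1.1-fold rule gave 14 higher and 4 lower, both by construction. Scaling by total counts gave 7 intervals above 1, adding Mrpl11. It moved log2 ratios by 0.012, and TMM by 0.00013. All 75 ratios of the 25 named members under both scalings and a pseudocount of 5 stayed within the counting interval. This too was by construction, since these changes are smaller than the narrowest interval, a factor of 1.08. The gene length used changes the order of levels, most for Mrpl33.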

Other observations

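Partners that start head to head with a member, chosen for description after the pairs were known, were measured in 26 of 28 cases and had a median log2 ratio of 0.01, from -0.73 to 0.23. The lowest was Wdfy1, a FYVE-domain gene whose start overlaps that of Mrpl44 (starts 125 bases apart). Wdfy1 had 754 ST counts and 1577 NT counts, a ratio of 0.603 (0.553 to 0.659), while Mrpl44 was at 0.923 (0.815 to 1.04), and both share reads. Zfp189, which starts 83 bases from Mrpl50, had 206 and 221 counts and a ratio of 1.18 (0.968 to 1.43), with Mrpl50 at 0.956 (0.875 to 1.04), and neither shares reads. Over all 26 members with a measured partner, 16 had a log2 ratio of the same sign as the partner's, with Mrps11 and Mrpl46 counted once each. Of the 5 pairs in which neither gene shares reads, 2 did.

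Related rows outside the naming rule include D10Ertd322e, described in the table as the gene of mitochondrial ribosomal protein L42, with 231 counts in ST and 342 in NT (0.852, 0.718 to 1.01). The pseudogene Mrpl48-ps had 723 and 893 counts, as many as Mrpl48 itself with 698 and 808, and both rows share reads.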
